A study of Mus musculus with 6 samples.

Results

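Chromatin accessibility was examined at the promoters of the interferon-induced gene families in nuclei of mouse skeletal muscle fibres. The genes were chosen by symbol alone. They are the Ifit, Ifitm, Ifi, Oas, Gbp, Irgm, Irf, Isg and Mx families with the Stat genes of interferon signalling and Rsad2, Usp18, Ifih1, Ddx58 and Bst2, without pseudogenes marked -ps. They took up 71 of the 49366 promoter windows of the series. A window reaches 1 kb up- and downstream of each transcript start that the annotation gives for a gene. The annotation lists 81 genes with such symbols, and the other 10, Gbp4, Gbp6, Ifi203, Ifi30, Ifit1, Ifit1bl2, Ifitm2, Isg20l2, Oas1b and Oas1c, were not analysed here. Irf2bp1, Irf2bp2 and Irf2bpl, which encode proteins that bind IRF2 or resemble one that does, met the rule by name and are not known as interferon-induced genes. Ifitm5 and Ifitm10 are relatives of the antiviral Ifitm genes and likewise entered by name.

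The libraries were made by ATAC-seq, in which a transposase inserts sequencing adapters into open DNA, from nuclei sorted for PCM1, a protein at the envelope of myonuclei. AAV6 vectors carrying an shRNA against Yap, a coactivator of the Hippo pathway, or a control shRNA against the bacterial gene lacZ had been injected into opposite limbs of male C57BL/6J mice aged 8 weeks, and muscles were taken at 28 days. Each of the 3 LacZ-shRNA and 3 Yap-shRNA replicates pooled 4 gastrocnemius and 4 tibialis anterior muscles. All 6 samples therefore carried an AAV6 vector and an shRNA, and no uninjected muscle was included, so any effect of vector or hairpin that both groups share cannot be seen here.

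Type I interferons act through the IFNAR receptor and the kinases JAK1 and TYK2, which phosphorylate STAT proteins. These join IRF9 and bind the interferon-stimulated response element (ISRE), a pair of GAAA half-sites, in the promoters of antiviral genes. Interferon gamma acts mostly through STAT dimers at the gamma-activated site (GAS). The products include sensors of viral RNA (Ifih1, Ddx58), enzymes that lead to RNA decay (the Oas genes), inhibitors of viral translation or entry (the Ifit and Ifitm genes), GTPases of pathogen defence (the Gbp, Irgm and Mx genes), DNA-binding proteins of the Ifi200 cluster, and feedback regulators such as Usp18. Genes of one family lie side by side on the chromosome: 47 of the 71 members fell into 11 clusters with gaps of at most 500 kb, and 24 lay outside them.

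The promoters are shown first because the half-sites they share were not used to choose the genes. RefSeq promoter sequences of build GRCm38.p6, from 250 bases before to 50 bases after a start, were matched by symbol for 55 of the 71 genes. An ISRE was counted at GAAANNGAAA, or TTTCNNTTTC on the other strand, and a GAS at TTCNNNGAA, which reads alike on both strands. An ISRE stood in 29 of the 65 promoters of these genes (44.6%), against 3.44% of all 32851 promoters of the table. For GAS the shares were 23.1% and 8.30%. Of the 40 ISRE matches, 35 lay before the start and 22 of them within 100 bases of it. A match is a description of the letters and not evidence of binding.

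The first set shows classical antiviral effectors and the chain of half-sites close to their starts. Each stretch runs 5′ to 3′ on the gene's strand and ends at the base before the start, with ISRE matches in capitals. They come from chr4:156200819-156200911 on the minus strand for Isg15, a ubiquitin-like protein, chr12:26456453-26456587 on the minus strand for Rsad2 (viperin), chr5:120907526-120907560 on the minus strand for Oas1a, chr3:142559984-142560043 on the plus strand for Gbp3, and chr11:48871421-48871465 on the minus strand for Irgm1. Isg15 held 3 overlapping matches, with first bases 78, 72 and 66 bases before the start.
Isg15: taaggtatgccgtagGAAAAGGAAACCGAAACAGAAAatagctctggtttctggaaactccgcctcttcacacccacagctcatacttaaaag
Rsad2: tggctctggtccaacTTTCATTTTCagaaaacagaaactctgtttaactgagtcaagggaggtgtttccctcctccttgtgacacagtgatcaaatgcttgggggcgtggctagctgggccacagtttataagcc
Oas1a: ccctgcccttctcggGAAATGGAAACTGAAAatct
Gbp3: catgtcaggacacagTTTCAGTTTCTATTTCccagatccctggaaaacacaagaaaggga
Irgm1: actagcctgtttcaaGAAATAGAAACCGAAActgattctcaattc

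The second set shows genes of the Ifi200 cluster on chromosome 1, whose printed ISREs have the same letters. Ifi206 and Ifi208 also match in all bases printed after the ISRE of Ifi206, while Ifi207 and Ifi214 differ there. Such likeness matters for how surely reads can be assigned to one gene. They come from chr1:173491319-173491373 (Ifi206, minus strand), chr1:173741810-173741865 (Ifi207, minus strand), chr1:173673592-173673664 (Ifi208, plus strand) and chr1:173535958-173536051 (Ifi214, minus strand). An ISRE was found in 7 of the 9 Ifi200 genes with a sequence.
Ifi206: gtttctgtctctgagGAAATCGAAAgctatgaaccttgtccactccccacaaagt
Ifi207: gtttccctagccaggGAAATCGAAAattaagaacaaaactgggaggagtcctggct
Ifi208: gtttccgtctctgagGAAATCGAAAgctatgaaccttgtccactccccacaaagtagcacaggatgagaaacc
Ifi214: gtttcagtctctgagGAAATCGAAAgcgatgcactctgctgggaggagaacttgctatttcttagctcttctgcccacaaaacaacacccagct

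The third set contrasts the regulators. Of the 8 Irf genes with a sequence 1, Irf2, held an ISRE and 3 held a GAS. The Irf1 stretch (chr11:53769914-53770013, plus strand) has a GAS in capitals, 90 bases before the start. The Stat2 stretch (chr10:128270261-128270497, plus strand) has an ISRE in capitals, 222 bases before the start.
Irf1: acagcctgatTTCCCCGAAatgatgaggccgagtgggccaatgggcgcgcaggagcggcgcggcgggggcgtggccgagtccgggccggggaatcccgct
Stat2: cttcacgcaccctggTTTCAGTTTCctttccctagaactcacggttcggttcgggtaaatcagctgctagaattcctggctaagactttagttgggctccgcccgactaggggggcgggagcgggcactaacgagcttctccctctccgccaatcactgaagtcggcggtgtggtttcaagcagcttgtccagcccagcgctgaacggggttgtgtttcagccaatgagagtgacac

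Paralogs limit what the counts can say. Over 260 aligned bases of the 300-base promoters, Ifit3 and Ifit3b differed at 1 and were 99.6% identical, and Oas1a and Oas1g were 88.8% identical over 294 bases. The study's methods name a mapping quality minimum for counts over whole genes, and whether it held for these tables is not stated, so counts of near-identical Ifit, Oas, Gbp and Ifi200 genes are uncertain. A further 13 member windows overlapped the window of another gene and are also uncertain, among them Irf1, Irf2, Irf3, Stat2, Irgm2, Oas3, Oasl1 and Ifit2. The other 58 stood alone.

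Total window counts ran from 3326803 (LacZ-shRNA replicate 2) to 10319467 (Yap-shRNA replicate 2), and the members held between 0.158% and 0.183% of them. The promoter of the targeted gene, Yap1, held 12.1, 16.7 and 14.1 CPM in LacZ-shRNA and 14.7, 16.5 and 12.1 CPM in Yap-shRNA, which does not check a knockdown that acts on RNA. LacZ-shRNA replicate 1 stood apart from the other libraries. Relative to the mean of the 6 samples its log2 CPM was lower by a median of 0.176 over the 13000 windows that hold a peak and higher by 0.119 over the 36366 that do not, so each family is also given without it where that turns a direction. The sort was for muscle nuclei, and the 14 muscle fibre marker windows had a median of 29.6 CPM per kb, against 5.69 CPM per kb for 19 leukocyte markers. A peak lay in 8 of the muscle fibre marker windows and in 1 leukocyte marker window, that of Spi1. The muscle gene Tnni2 had 55.2 CPM per kb and no peak, so a window without a peak is not always one of low accessibility.

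CPM are counts scaled to a common library size with TMM factors, and levels between genes are given per kb of window. The median member had 5.41 CPM per kb, averaged over the 6 samples, against 4.45 CPM per kb over all windows. A peak overlapped the windows of 22 of the 71 members (31.0%), against 26.3% of all windows. The 22 members with a peak had a median of 7.57 CPM per kb and the 49 without one 4.81 CPM per kb.

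**Figure D1:**
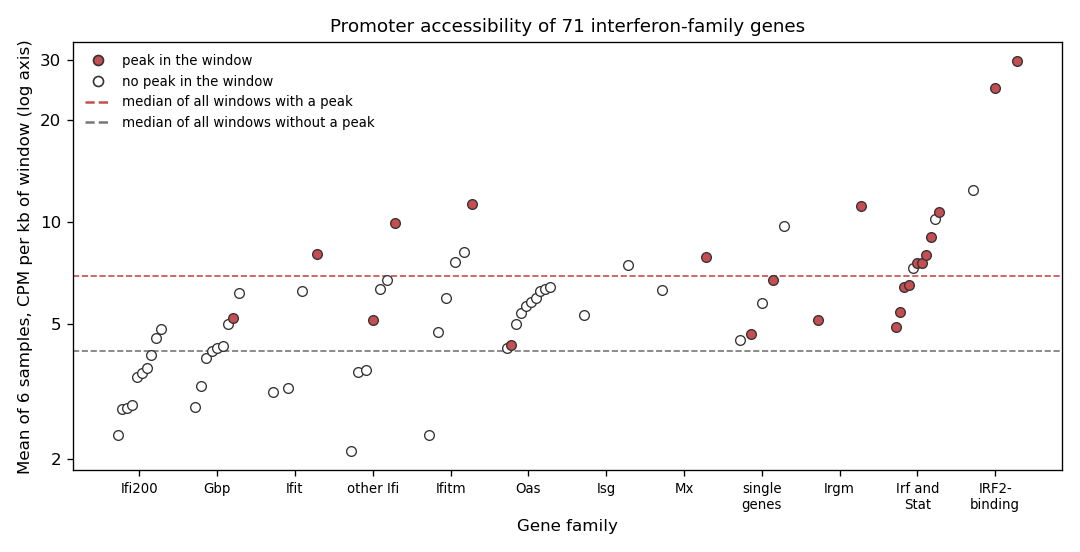
Mean accessibility of each of the 71 members over 6 samples, in CPM per kb of window on a log axis, by gene family; filled points have a peak in the window. The IRF2-binding proteins reach 29.7 CPM per kb, the Irf and Stat genes reach 10.7, and the 10 Ifi200 genes, none with a peak, stay between 2.35 and 4.81.

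The highest levels belonged to Irf2bp2, with 31.5 ± 4.87 CPM per kb (SD, n = 3) in LacZ-shRNA and 27.9 ± 0.684 in Yap-shRNA, and Irf2bpl, with 27.8 ± 3.91 and 21.9 ± 1.89. Their means over samples stood at percentiles 99.7 and 99.4 of all windows. Outside the IRF2-binding proteins, Ifitm10, Irgm1, Irf8 and Irf7 came next. Ifitm10 had 11.3 ± 0.856 CPM per kb in LacZ-shRNA and 11.3 ± 1.36 in Yap-shRNA, Irgm1 10.02 ± 2.10 and 12.3 ± 0.886, Irf8 10.5 ± 1.03 and 10.97 ± 0.542, and Irf7, the regulator that amplifies interferon production, 9.57 ± 0.717 and 10.8 ± 0.695. Neighbours in this order overlapped within their spread, while Ifitm10 and Irf7 did not overlap in LacZ-shRNA. Bst2 (tetherin), which holds budding virus at the cell surface, had 9.67 ± 1.85 and 9.74 ± 1.95 CPM per kb although no peak lay in its window.

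The transcription factors of the response and the effectors are counted apart. Of the 11 Irf and Stat genes, 9 had a peak, and their median level was 7.56 CPM per kb. Irf4, a lymphoid factor, and Irf7 had none. Of the 60 other members 13 had a peak (21.7%), among them Mx2, Ifit3b, Ifi35, Irgm1, Irgm2, Usp18 and Ifih1. None of the Ifi200 genes and 1 of the 10 Oas genes, Oasl1, had one. Ifi47, Ifitm7 and Ifi214 were lowest, at 2.11, 2.34 and 2.35 CPM per kb, and the windows of Ifi47 and Ifitm7 are among those that overlap another gene's. The near-identical pair Ifit3 and Ifit3b differed in level, with 2.67 ± 1.34 and 3.62 ± 0.489 CPM per kb for Ifit3 against 7.44 ± 0.968 and 8.65 ± 1.24 for Ifit3b.

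Half-sites and peaks were counted side by side, with no test. Of the 28 members with an ISRE in their promoter 6 had a peak in the window (21.4%), with a median of 4.91 CPM per kb. Of the 27 members with a promoter sequence and no ISRE 11 had a peak (40.7%), with a median of 5.96 CPM per kb. The 22 promoters of members with a peak had a median of 16 CpG dinucleotides in 300 bases, the 43 promoters of members without one had 3, and all promoters had 7. Isg15, with its 3 overlapping matches printed above, had 5.40 ± 0.454 and 5.18 ± 0.501 CPM per kb and no peak. Rsad2, at 5.92 ± 0.680 and 5.61 ± 0.890 CPM per kb, had none either, whereas Irgm1 had both an ISRE and a peak.

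The main comparison asked whether accessibility of these promoters differed after Yap knockdown. No member passed the threshold of an edgeR adjusted p of 0.05, and the lowest adjusted p was 0.946. Over all windows 11 passed (0.0223%). The log2 fold changes of the members, Yap-shRNA against LacZ-shRNA, ran from -0.39 to 0.36, with a median of -0.010 against -0.014 over all windows. They were positive in 31 members and negative in 40, so that 43.7% of the members were positive, against 47.3% of all windows. With library size alone and no TMM factors the median of all windows was 0.046 and that of the members 0.050. At an unadjusted p under 0.05, 2 members were higher in Yap-shRNA, among them Irf1, against 1.9% of all windows, and 1, Irf2bpl, was lower, against 3.01%. All Yap-shRNA samples lay above all LacZ-shRNA samples in 7 members, against 5.31% of all windows, and below them in 4, against 4.79%. In simulated data of this depth 71.5% of windows changed by 1 on the log2 scale were called, and 9.5% of those changed by 0.5, so changes of the size seen here were mostly not detectable.

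**Figure D2:**
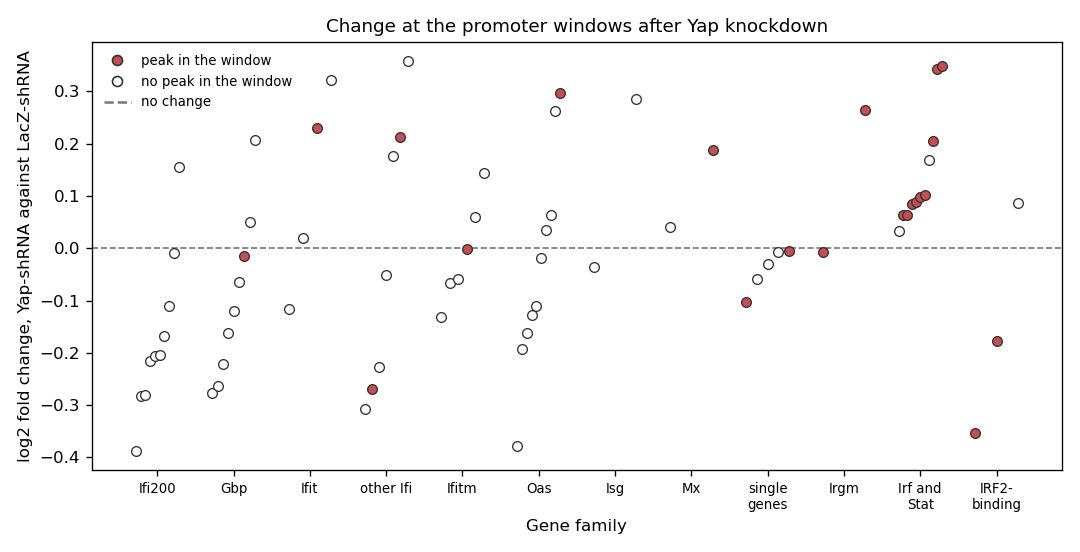
Log2 fold change, Yap-shRNA against LacZ-shRNA, of each of the 71 promoter windows by gene family, with filled points for windows that hold a peak. All 11 Irf and Stat genes lie above 0 and 9 of the 10 Ifi200 genes below it, and no single gene passed the adjusted threshold.

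All 11 Irf and Stat windows had positive fold changes, with a median of 0.099, and all remained positive with RLE factors and with library size alone. Without LacZ-shRNA replicate 1 this held for 8 of the 11, with a median of 0.067, and without Yap-shRNA replicate 2 for 10. The median was 0.16 with library size alone and 0.18 without LacZ-shRNA replicate 2. Irf1, a factor induced by interferon gamma, held 19.9, 26.9 and 30.4 CPM in LacZ-shRNA and 29.4, 35.4 and 33.8 CPM in Yap-shRNA. Its groups overlapped, with LacZ-shRNA replicate 1 the lowest, and the log2 fold change was 0.34 (SE 0.15; adjusted p 0.946 by edgeR).

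Irf7 held 29.3, 33.6 and 33.3 CPM in LacZ-shRNA and 34.8, 34.5 and 38.7 CPM in Yap-shRNA. Its lowest Yap-shRNA sample lay above its highest LacZ-shRNA sample, and the log2 fold change was 0.17 (SE 0.14). Irf9, the DNA-binding partner of STAT2, held 44.3, 56.1 and 56.6 CPM in LacZ-shRNA and 60.9, 55.5 and 64.4 CPM in Yap-shRNA, with a log2 fold change of 0.20 (SE 0.14) and overlapping groups. Stat2 differed by 0.088 (SE 0.14), Irf8, a factor of myeloid cells, by 0.064 (SE 0.13) and Irf3, which is activated by virus sensors, by 0.084 (SE 0.14). The Stat2 and Irf8 values were negative without LacZ-shRNA replicate 1, at -0.046 and -0.016.

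Irf2bpl, a gene of the IRF2-binding protein group, had the smallest unadjusted p in the other direction. It held 49.6, 52.9 and 64.5 CPM in LacZ-shRNA and 47.97, 40.5 and 43.2 CPM in Yap-shRNA. All Yap-shRNA samples lay below the LacZ-shRNA samples, and LacZ-shRNA replicate 3 was the highest. The log2 fold change was -0.35 (SE 0.14; adjusted p 0.946 by edgeR). The difference was smaller in the peak at Irf2bpl, at -0.13 (SE 0.13) with overlapping groups. That peak had 94.7, 97.2 and 107.7 CPM in LacZ-shRNA and 97.4, 91.4 and 85.8 CPM in Yap-shRNA. The Irf2bp2 window differed by -0.18 (SE 0.14) with overlapping groups.

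The RNA-sensing and antiviral effectors were divided. Of the 10 Oas genes, enzymes that make the activator of RNase L or derive from such enzymes, 4 were positive, with a family median of -0.065. Without LacZ-shRNA replicate 1 there were 6 positive values and the median was 0.047. Oasl2 held 30.6, 41.01 and 35.8 CPM in LacZ-shRNA and 38.7, 42.3 and 46.6 CPM in Yap-shRNA, a log2 fold change of 0.26 (SE 0.14) with overlapping groups. Oas1d, at 15.7, 8.65 and 14.4 CPM in LacZ-shRNA and 9.67, 11.8 and 9.39 CPM in Yap-shRNA, differed by -0.38 (SE 0.19), and LacZ-shRNA replicate 2 lay below all Yap-shRNA samples. Oas1a, Oas1e, Oas2 and Oas3 had values of 0.063, -0.11, -0.018 and -0.16.

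Among the Ifit genes, which bind viral RNA, 3 of 4 were positive. Ifit3b held 17.01, 14.4 and 13.2 CPM in LacZ-shRNA and 16.7, 20.02 and 15.2 CPM in Yap-shRNA, a log2 fold change of 0.23 (SE 0.17). Ifit3 differed by 0.32 (SE 0.27) and Ifit2 by 0.019 (SE 0.27). Isg15 held 10.3, 11.9 and 10.3 CPM in LacZ-shRNA and 9.47, 11.5 and 10.2 CPM in Yap-shRNA, so its groups overlapped throughout, with a log2 fold change of -0.036 (SE 0.19). Isg20, an exonuclease, differed by 0.28 (SE 0.17), with the lowest of its 6 values in LacZ-shRNA replicate 2.

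All 5 of the genes taken singly, Rsad2, Usp18, Ifih1, Ddx58 and Bst2, had fold changes between -0.10 (Usp18) and -0.006 (Ifih1), each smaller than its SE. With library size alone 4 of these 5 values were positive. The restriction factors Mx1 and Mx2 had values of 0.04 (SE 0.14) and 0.19 (SE 0.13). Mx2 held 46.7, 50.6 and 52.2 CPM in LacZ-shRNA and 52.7, 59.96 and 57.7 CPM in Yap-shRNA, and its groups did not overlap by a narrow margin. Ifitm3, which blocks viral entry, and its relative Ifitm10 had values of 0.14 (SE 0.17) and -0.0022 (SE 0.14).

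Ifi27l2a held 14.7, 14.1 and 15.8 CPM in LacZ-shRNA and 10.3, 12.4 and 13.8 CPM in Yap-shRNA. All of its Yap-shRNA samples were the lower ones, with a log2 fold change of -0.31 (SE 0.18; adjusted p 0.946 by edgeR). Its neighbour Ifi27 lay the other way, at 25.1, 22.7 and 24.8 CPM in LacZ-shRNA and 27.1, 30.3 and 25.3 CPM in Yap-shRNA, a log2 fold change of 0.18 (SE 0.15). Ifi35 also had all Yap-shRNA samples above, with 19.00, 21.5 and 19.5 CPM in LacZ-shRNA and 23.4, 22.9 and 22.6 CPM in Yap-shRNA and a log2 fold change of 0.21 (SE 0.15). Ifi44 differed by 0.36 (SE 0.24) with overlapping groups.

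The GTPases of the Gbp family had negative values in 7 of 9 genes, with a median of -0.12. The windows of Gbp8 and Gbp9, both negative, overlap each other, so their counts are uncertain and not separate readings. Gbp9 held 22.6, 23.4 and 19.1 CPM in LacZ-shRNA and 16.7, 16.4 and 20.1 CPM in Yap-shRNA (-0.28, SE 0.16), and Gbp11 22.4, 14.7 and 18.8 CPM in LacZ-shRNA and 15.8, 15.3 and 16.5 CPM in Yap-shRNA (-0.26, SE 0.17). Both overlapped between the groups. Gbp2 was positive, at 0.21 (SE 0.22), and Gbp7 was at -0.064 (SE 0.19). Irgm1, a regulator of the immunity-related GTPases, held 19.4, 21.5 and 28.6 CPM in LacZ-shRNA and 29.2, 26.1 and 29.9 CPM in Yap-shRNA, a log2 fold change of 0.26 (SE 0.15), and LacZ-shRNA replicate 3 was within the Yap-shRNA range.

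The Ifi200 genes had the lowest family median after knockdown among families of 4 or more, -0.21, with 9 of 10 values negative. This rested on one control library. In LacZ-shRNA replicate 1 the 10 windows were higher than their mean over samples by a median of 0.63 on the log2 scale, and in LacZ-shRNA replicate 2 lower, by -0.46, whereas the Yap-shRNA medians lay between -0.11 and 0.00091. Ifi207, for example, held 16.1, 6.73 and 7.97 CPM in LacZ-shRNA and 8.66, 9.03 and 9.27 CPM in Yap-shRNA, so that all Yap-shRNA samples lay between the controls. Without LacZ-shRNA replicate 1 the family had 7 of 10 positive values and a median of 0.054. Its excess in that library was larger than that of all windows without a peak (0.119), and the part of library quality in it was not tested.

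**Figure D3:**
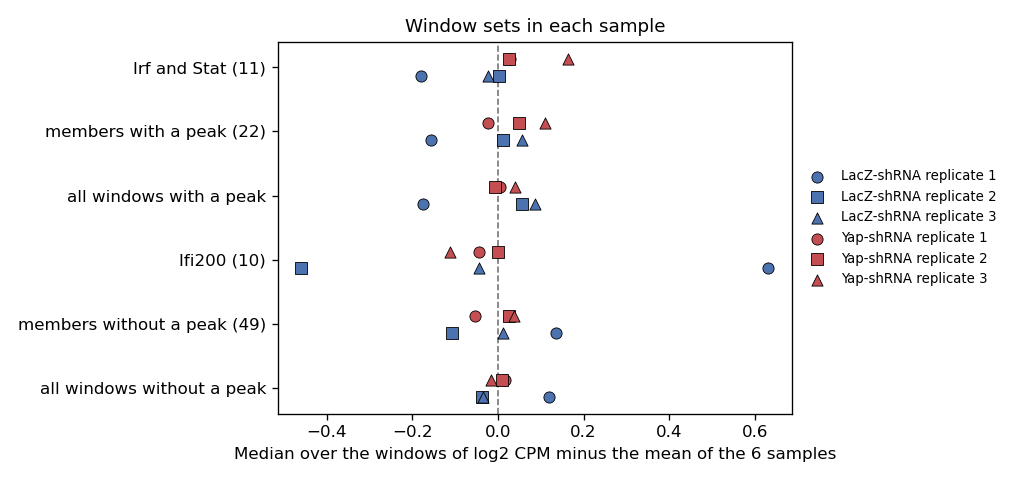
Median over each set of windows of log2 CPM minus the mean of the 6 samples, with LacZ-shRNA in blue, Yap-shRNA in red and the replicates by symbol. LacZ-shRNA replicate 1 is lowest in the sets with peaks (-0.18 for Irf and Stat, -0.176 for all windows with a peak) and highest in the sets without (0.63 for Ifi200, 0.119 for all windows without a peak).

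The members are also given by the presence of a peak. Of the 22 members with a peak 14 had positive values, with a median of 0.086, against 53.1% and 0.012 for all windows with a peak. Of the 49 without one 17 were positive, with a median of -0.059, against 45.3% and -0.029 for all windows without a peak. Outside the Irf and Stat genes the members with a peak were positive in 5 of 13, with a median of -0.0060. Without LacZ-shRNA replicate 1 the directions of all windows turned, to 34.6% positive and a median of -0.063 with a peak and to 56.5% and 0.034 without one. The members with a peak then had 12 positive values and a median of 0.037, and those without one 21 and -0.019. The median of the members with a peak was 0.028 without Yap-shRNA replicate 3. These shares were not tested against those of all windows.

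Counts within the peaks themselves leave out the remainder of each window, and take in DNA beyond it where a peak reaches past its edge. The Irf2bp2 peak, for example, spans 5206 bp and its window 2.001 kb. The 24 peaks that overlap a member window, in 22 genes, had a median log2 fold change of 0.19, and 18 were positive. Over the 12574 peaks in any promoter window the median was 0.024 and 56.1% were positive. None of the 24 passed an edgeR adjusted p of 0.05, against 0.618% of all 36097 peaks, and the lowest adjusted p was 0.122. At an unadjusted p under 0.05 there were 9 (8.9% of all peaks). Of these, 8 were higher in Yap-shRNA, among them Mx2, Irf1, Irgm1, Stat2, Irf9, Ifi35 and Ifit3b, against 3.59% of all peaks, and Oasl1 was lower, against 5.31%. The promoter peaks leaned the other way from all peaks. Of the 12574, 960 had an unadjusted p under 0.05 (7.63%), and 554 of these were higher in Yap-shRNA. All Yap-shRNA samples lay above all LacZ-shRNA samples in 8 peaks, against 6.55% of all peaks, and below in none, against 6.76%. The median in single samples lay at -0.091, -0.093 and 0.00033 in LacZ-shRNA replicates 1, 2 and 3 and at 0.077, 0.15 and 0.11 in the Yap-shRNA replicates.

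**Figure D4:**
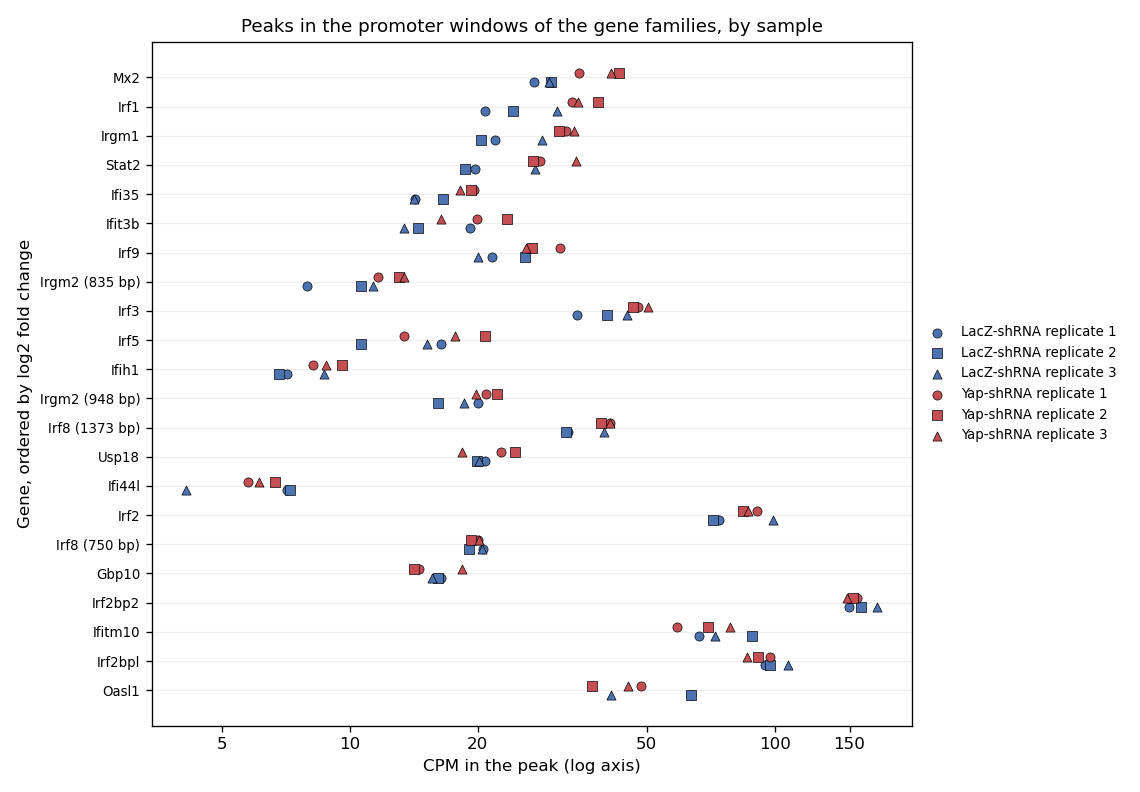
CPM on a log axis in 22 of the 24 peaks at member promoters, by sample, with LacZ-shRNA in blue and Yap-shRNA in red; genes are ordered by log2 fold change, and genes with more than 1 peak carry the peak width. The 3 Yap-shRNA values lie to the right of all LacZ-shRNA values in 7 of the peaks shown, from Mx2 at the top (39.7 against 28.8 CPM on average), and Oasl1 at the bottom has the largest difference the other way (43.6 against 56.1 CPM).

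The Mx2 peak (chr16:97534535-97536579), which holds an ISRE, had 27.1, 29.7 and 29.5 CPM in LacZ-shRNA and 34.7, 43.1 and 41.2 CPM in Yap-shRNA. The groups were apart, with a log2 fold change of 0.46 (SE 0.14; adjusted p 0.122 by edgeR). At Irf1 (chr11:53769514-53770923), whose peak spans the GAS printed above, the values were 20.8, 24.2 and 30.8 CPM in LacZ-shRNA and 33.3, 38.4 and 34.4 CPM in Yap-shRNA. LacZ-shRNA replicate 3 was close to the Yap-shRNA samples, and the log2 fold change was 0.45 (SE 0.15; adjusted p 0.203 by edgeR). The Irgm1 peak (chr11:48871229-48872596), with 3 ISRE matches, had 21.9, 20.4 and 28.3 CPM in LacZ-shRNA and 32.2, 30.99 and 33.7 CPM in Yap-shRNA, a log2 fold change of 0.41 (SE 0.15; adjusted p 0.281 by edgeR).

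The peaks of Stat2 and Irf9, whose proteins act together at the ISRE, were both positive. Stat2 had 19.7, 18.7 and 27.3 CPM in LacZ-shRNA and 28.1, 26.96 and 34.1 CPM in Yap-shRNA (0.38, SE 0.15), and its groups overlapped through LacZ-shRNA replicate 3. Irf9 had 21.6, 25.9 and 20.03 CPM in LacZ-shRNA and 31.2, 26.8 and 25.97 CPM in Yap-shRNA (0.35, SE 0.15), with Yap-shRNA replicate 3 only just above LacZ-shRNA replicate 2. Their edgeR adjusted p-values lay between 0.392 and 0.443. Of the 10 Irf and Stat peaks 9 were positive, with a median of 0.26. Irf3 had 34.2, 40.3 and 44.9 CPM in LacZ-shRNA and 47.8, 46.4 and 50.3 CPM in Yap-shRNA (0.26, SE 0.13), and all its Yap-shRNA samples were the higher ones. Irf5, with overlapping groups, had a value of 0.26 (SE 0.19), and the 2 peaks of Irf8 had 0.18 and -0.024.

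Ifi35 had 14.2, 16.6 and 14.1 CPM in LacZ-shRNA and 19.6, 19.3 and 18.2 CPM in Yap-shRNA, which did not overlap (0.37, SE 0.17). Ifit3b had 19.2, 14.4 and 13.4 CPM in LacZ-shRNA and 19.9, 23.5 and 16.4 CPM in Yap-shRNA (0.37, SE 0.18), and LacZ-shRNA replicate 1 lay among the Yap-shRNA samples. Usp18, Ifih1 and Irf2 had values of 0.11, 0.19 and 0.076, each below its SE. The Oasl1 peak went against its window. It had 63.5, 63.7 and 41.1 CPM in LacZ-shRNA and 48.5, 37.1 and 45.2 CPM in Yap-shRNA (-0.33, SE 0.14), with LacZ-shRNA replicate 3 inside the Yap-shRNA range, while the window, which overlaps that of another gene, had 25.5, 26.9 and 20.4 CPM in LacZ-shRNA and 28.6, 27.7 and 31.5 CPM in Yap-shRNA (0.30, SE 0.15). In LacZ-shRNA the window held 141, 84 and 179 counts, fewer than the 232, 150 and 279 of the peak, so it does not hold all reads of that peak. The 2 measures do not give one direction at Oasl1. Other members also differed in sign between them, among them Usp18 and Ifih1, whose windows were at -0.10 and -0.0060.

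The scaling and a control library moved these peak values. Leaving out TMM factors raised the median of all promoter peaks from 0.024 to 0.16 and that of the member peaks from 0.19 to 0.33, and then the Mx2 and Irf1 peaks passed the threshold. With that scaling 229 of all 36097 peaks passed, against 223 in the main fit, and 23 of the 24 member peaks and 83.4% of all promoter peaks were positive. Without LacZ-shRNA replicate 3, the deepest control library, the Irf1 and Oasl1 peaks passed the threshold, with edgeR adjusted p-values of 0.0233 and 0.0236 and opposite directions. Over all 36097 peaks 447 passed in that fit, against 223 in the main one. In the other alternatives no member peak passed. Without LacZ-shRNA replicate 1, the library that stood apart, 17 of the 24 member peaks were positive with a median of 0.17, while 46.4% of all promoter peaks were, with a median of -0.017. Without LacZ-shRNA replicate 3 the shares were close, at 70.8% of the member peaks and 68.0% of all promoter peaks. The medians were then 0.26 and 0.095.

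Motif content of the peaks was counted on the same letters. An ISRE stood in 12 of the 24 member peaks (50%), against 7.22% of all peaks with sequence, and a GAS in 11 (45.8%), against 20.2%. Member peaks had a median width of 951.5 bp and all peaks 901 bp. The Oasl1 peak held neither.

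The pathway genes outside these families were listed by role. Of 50 such genes 47 had a window, and none passed the adjusted threshold (0.0223% of all windows did). Fold changes were positive in 30 and negative in 17, with a median of 0.11. Without LacZ-shRNA replicate 1 they were positive in 23 and negative in 24, with a median of -0.0011, and without LacZ-shRNA replicate 3 the median was 0.17. The 9 receptors and kinases had a median of -0.022, among them Ifnar1, the receptor chain for type I interferons, at -0.17 (SE 0.14) and Tyk2 at 0.17 (SE 0.14). Of the 4 negative regulators 2 were positive, the inhibitors of JAK signalling Socs1 at 0.16 (SE 0.14) and Socs3 at 0.18 (SE 0.15). Socs1 and Socs3 both had their lowest value in LacZ-shRNA replicate 1. Without that library 1 of the 4 regulators was positive, and their median was -0.10 instead of 0.044. The phosphatase Ptpn2 was at -0.15 (SE 0.14) and Pias1, an inhibitor of STAT proteins, at -0.069 (SE 0.13). Of the 20 other interferon-induced genes 15 were positive, with a median of 0.19, and without LacZ-shRNA replicate 1 there were 13, with a median of 0.079.

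An unadjusted p under 0.05 was found for 3 pathway genes, all higher in Yap-shRNA (1.9% of all windows were). These were Zc3hav1, an antiviral zinc finger protein, Tlr9, a sensor of DNA, and Psmb8, a subunit of the immunoproteasome. Zc3hav1 held 13.6, 16.3 and 21.2 CPM in LacZ-shRNA and 22.3, 22.1 and 25.5 CPM in Yap-shRNA, a log2 fold change of 0.42 (SE 0.16; adjusted p 0.946 by edgeR), and its groups did not overlap. Tlr9 and Psmb8 differed by 0.41 (SE 0.19) and 0.29 (SE 0.15). Ticam1, an adaptor of Toll-like receptors, was lower, at -0.26 (SE 0.15), and passed the threshold without LacZ-shRNA replicate 1, at -0.46 and an edgeR adjusted p of 0.0259. Its window holds a peak, and in that fit 34.6% of all windows with a peak were positive, with a median of -0.063.

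Markers of other cell types are given beside these values. In sorted nuclei a change in the share of a cell type and a change in accessibility per nucleus cannot be told apart. Of the 19 leukocyte markers 15 were positive, with a median of 0.13, and their summed level was 292 to 323 CPM in LacZ-shRNA and 330 to 341 CPM in Yap-shRNA. Levels of the leukocyte markers ran from 2.24 to 9.58 CPM per kb, around the median of 4.14 CPM per kb of all windows without a peak. Windows with a mean count under 10 had no row, so these levels cannot show whether leukocyte nuclei were present. The summed level of 7 fibroblast markers was 205 to 227 CPM in LacZ-shRNA and 217 to 258 CPM in Yap-shRNA, with 3 of 7 positive, and that of 8 endothelial markers 242 to 255 and 234 to 248 CPM, with 4 of 8 positive. Of the 14 muscle fibre markers 3 were positive, and their summed level was 1735 to 2454 CPM in LacZ-shRNA and 1894 to 2186 CPM in Yap-shRNA. The summed level of the Irf and Stat windows was 452 to 523 CPM in LacZ-shRNA and 525 to 576 CPM in Yap-shRNA. The part of non-muscle nuclei in the positive values of the Irf and Stat genes was not tested.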

How the data were processed

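Per the labels and the study's methods, transposed DNA of PCM1-sorted nuclei was sequenced in pairs. The submitters' processing notes name BWA 0.7.17, SAMtools 1.8, MACS 1.4.2-1, featureCounts 1.5.0 and the build GRCm38. The deposited values are whole-number read counts, not normalized by the authors, in a table of peaks merged over samples and a table of windows around transcript starts. Rows with a mean count under 10 were not present. The study's methods give a mapping quality minimum for counting over whole genes, and do not say whether it held for these tables. Reads of near-identical promoters can therefore be counted at either copy, or lost.

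Window extents were rebuilt from the GENCODE annotation of the same build. Of 5395 windows that stood alone and enclosed their peaks, 99.98% held at least 0.95 of the peak counts. Groups were compared in R 4.3.3 with the quasi-likelihood test of edgeR 4.0.16 on all rows of each table, scaled by TMM, without covariates, and p-values were adjusted over the whole table (Benjamini-Hochberg, threshold 0.05). SE is that of the log2 fold change. Peaks were linked to a member when they overlapped its window. Sets are described by counts and medians, without a set test.

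The study describes the 3 replicates of each group as biologically independent, each a pool of muscles, so p-values measure the spread between pools. No 2 replicates agreed within counting noise (lowest chi-square per window 1.95). Whether replicates of the same number in the 2 groups share animals is not stated. Correlations of their deviations were 0.19, -0.12 and 0.092 over windows. With 3 pools per group these values can neither show nor exclude a pairing.

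Genes named in the text are a list of classical members, in each direction the 5 of smallest p-value and the gene with the highest level per kb of each family. Further members appear where a count of 5 or fewer, a level or a printed sequence singled them out after their values were seen. Some members enter the counts and medians but are not reported here by name. The members and lists were chosen with earlier results of these data known. On simulated counts the peak test recovered 75% of changes of 1 on the log2 scale and 15.5% of changes of 0.5. The alternatives comprised DESeq2 1.42.0, voom in limma 3.58.1, a likelihood-ratio test, RLE factors, library size alone, a mean count of at least 50, a replicate block and leaving out each sample.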

Additional observations from a re-analysis of the deposited data

How the results depend on the processing

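No member window passed the adjusted threshold under any alternative, and the lowest edgeR adjusted p among named genes was 0.0537. Members with an unadjusted p under 0.05 numbered 3, but 5 by the likelihood-ratio test, 5 by limma voom, 8 with library size alone and 0 to 9 when a sample was left out. The count was 9 without LacZ-shRNA replicate 2, 7 without LacZ-shRNA replicate 3, 6 without LacZ-shRNA replicate 1, 1 without Yap-shRNA replicate 2 and 0 without Yap-shRNA replicate 3. The median member fold change was 0.050 with library size alone and -0.040 to 0.020 with a sample left out. Called member peaks numbered 2 with library size alone and 0 to 2 with a sample left out, and the median of member peaks was 0.33 and 0.14 to 0.26. Over all peaks 229 were called with library size alone and 94 to 447 with a sample left out. Member peaks with an unadjusted p under 0.05 numbered 9, but 5 by DESeq2 and 5 to 9 with a sample left out. Called pathway genes numbered 0 to 1 with a sample left out. The replicate block gave 0 called windows and 0 called peaks, with a member peak median of 0.21. Whether the numbers pair the samples is not stated.

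Of 520 alternative fits of 40 named genes, 36 turned the sign, in 15 genes, none of which passed the threshold. With library size alone the values were 0.055 for Bst2, 0.030 for Ddx58, 0.055 for Ifih1, 0.060 for Ifitm10, 0.024 for Isg15, 0.040 for Oas2 and 0.0052 for Rsad2. With a sample left out the ranges were -0.16 to 0.18 for Bst2, -0.081 to 0.048 for Ddx58, -0.25 to 0.033 for Gbp7, -0.44 to 0.24 for Ifi207, -0.12 to 0.15 for Ifih1, -0.20 to 0.46 for Ifit2, -0.068 to 0.094 for Ifitm10 and -0.016 to 0.15 for Irf8. They were -0.12 to 0.024 for Isg15, -0.0079 to 0.12 for Mx1, -0.12 to 0.34 for Oas1a, -0.21 to 0.052 for Oas1e, -0.067 to 0.042 for Oas2, -0.20 to 0.017 for Rsad2 and -0.046 to 0.18 for Stat2. The causes were not tested. Depth limits the comparison, since single member windows held as few as 4 counts and the 2 shallowest libraries were both controls.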
